A study of Mus musculus with 9 samples.

Results

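The 7 genes of the hypoxia-inducible factor 1 (HIF-1) pathway described here are Hif1a, Arnt, Vhl, Egln1, Egln2, Egln3 and Hif1an, measured in CD4+ T cells activated with and without TEPP-46, an activator of pyruvate kinase M2. They were chosen by gene symbol, as the 2 subunits of HIF-1 and the enzymes and adaptor known to act on the HIF-1 alpha subunit according to oxygen. All 7 were found among the 47937 Ensembl genes of the deposited table of read counts, Egln1 after its identifier was matched without a version number. RNA came from spleen CD4+ T cells of C57BL/6 mice that carry CD62L, a surface marker of naive cells, isolated on magnetic beads. The first group, TEPP-46 cells (labelled Th0_TEPP), was incubated for 15 min with TEPP-46 and then activated on plate-bound antibodies against CD3 and CD28. The second, control cells (labelled Th0_Ctrl), received DMSO for 15 min and the same antibodies. The third, resting cells (labelled Resting), was the unactivated population. Each group had 3 libraries, numbered 1, 4 and 5. The dose is given as 50 to 100 µM for the treatment as a whole and not per library. The sources used here do not give the length of activation, the oxygen level of the culture or the animals behind each library. The p-values therefore cover only variation among these libraries, which may be technical.

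HIF-1 is a dimer of HIF-1 alpha, encoded by Hif1a, and the constitutive partner encoded by Arnt. In the presence of oxygen, prolyl hydroxylases encoded by Egln1, Egln2 and Egln3 mark HIF-1 alpha, the VHL protein recognises the mark and brings in a ubiquitin ligase, and the subunit is degraded; the asparagine hydroxylase encoded by Hif1an blocks the binding of coactivators. HIF-1 drives glycolytic genes in activated T cells, and Egln1 and Egln3 are themselves known HIF target genes. Since this control acts largely on the HIF-1 alpha protein, transcript levels describe only the supply side of the pathway. TEPP-46 holds pyruvate kinase M2, the enzyme of the final glycolytic step in proliferating cells, in its active form.

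Total counts ran from 2397304 to 5030643 per library. TEPP-46 replicate 4 had the lowest total, and the TEPP-46 libraries varied most among themselves, with a median SD of log2 CPM of 0.519, against 0.2 in control and 0.31 in resting libraries. CPM are counts scaled to a common library size, with the sizes adjusted by the TMM method of edgeR. Genes of ribosomal proteins summed to 39400, 9590 and 19700 CPM in TEPP-46 replicates 1, 4 and 5, against 24810 to 32170 CPM in control and 17700 to 24670 CPM in resting libraries. The nuclear RNA Malat1 stood at 2532, 12290 and 12820 CPM in TEPP-46 replicates 1, 4 and 5, against 2067 to 4120 CPM in control and 4373 to 8385 CPM in resting libraries. The T cell genes Cd3e and Cd4 were present in every library, Cd3e at 842 to 992 CPM in TEPP-46, 282 to 483 CPM in control and 397 to 928 CPM in resting libraries. The 9 B cell markers summed to 738 to 1295 CPM in TEPP-46, 231 to 258 CPM in control and 2554 to 3972 CPM in resting libraries, with Blk at 0 in the control libraries; of the 8 tested, 6 were higher in TEPP-46 than in control cells and 5 lower in control than in resting cells. The 6 neutrophil markers summed to 0.825 to 174 CPM in TEPP-46, to 0 in control and to 103 to 174 CPM in resting libraries, with Camp and S100a8 at 0 in the TEPP-46 libraries. The 5 endothelial markers summed to 198 to 276 CPM in TEPP-46, 17.9 to 38.6 CPM in control and 213 to 246 CPM in resting libraries, with Cdh5 and Emcn at 0 in both activated groups. The 8 markers of platelets and red cells summed to 16.5 to 271 CPM in TEPP-46, 1.2 to 4.91 CPM in control and 2.81 to 12.9 CPM in resting libraries, with 4 haemoglobin genes at 0 in the TEPP-46 libraries. Plasma cell markers summed to 228 to 569 CPM in TEPP-46, 656 to 1058 CPM in control and 777 to 3292 CPM in resting libraries, and those of myeloid cells to 125 to 149, 85.5 to 97.7 and 94.5 to 143 CPM in TEPP-46, control and resting libraries. Markers of NK cells and of CD8 T cells each stayed at or under 24.5 CPM in every library. The part of these differences in the results below was not tested.

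Hif1a, Egln1 and Egln3 rose with activation. With TEPP-46, Egln1 and Egln3 fell and Hif1an rose, whereas the mean of Hif1a was higher than in control cells by an amount that did not pass the test. Of these TEPP-46 results, only the fall of Egln3 held under every alternative setting. The calls of Egln1 and Hif1an were lost under some settings, and Hif1a was called under some. In control against resting cells, edgeR called 3 of the 7 genes higher and 0 lower at an adjusted p below 0.05, where 31.2% of the 12536 genes tested were called (15.5% higher, 15.8% lower). In TEPP-46 against control cells, Hif1an rose and Egln1 and Egln3 fell, where 16.2% of all genes were called (9.72% higher, 6.43% lower). In TEPP-46 against resting cells, Hif1a and Egln3 rose and 0 fell, where 10.3% were called (6.37% higher, 3.92% lower). At an unadjusted p below 0.05, 2 of the 7 were lower in control than in resting cells and 0 were lower in TEPP-46 than in resting cells, and DESeq2 and limma-voom called 0 lower in both. Calls were made with the quasi-likelihood test of edgeR, adjusted over all genes tested by the Benjamini-Hochberg method. In TEPP-46 against control cells, DESeq2 called 1642 genes higher and 1366 lower of 14304, and limma-voom 1014 and 1117 of 12536. Shares over all genes at an unadjusted p were not computed. The comparisons of TEPP-46 against control and of control against resting cells share the control libraries, so that a high control value lowers one fold change as it raises the other. Scaled by total counts alone, the calls of TEPP-46 against control cells split into 922 higher and 1182 lower instead of 1219 and 806, and those of control against resting cells into 2231 higher and 1604 lower instead of 1938 and 1976. Without TEPP-46 replicate 1 the TEPP-46 calls numbered 4407 instead of 2025, without TEPP-46 replicate 5 they numbered 647, and without control replicate 1, 4 or 5 they numbered 592, 535 or 395.

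**Figure D1:**
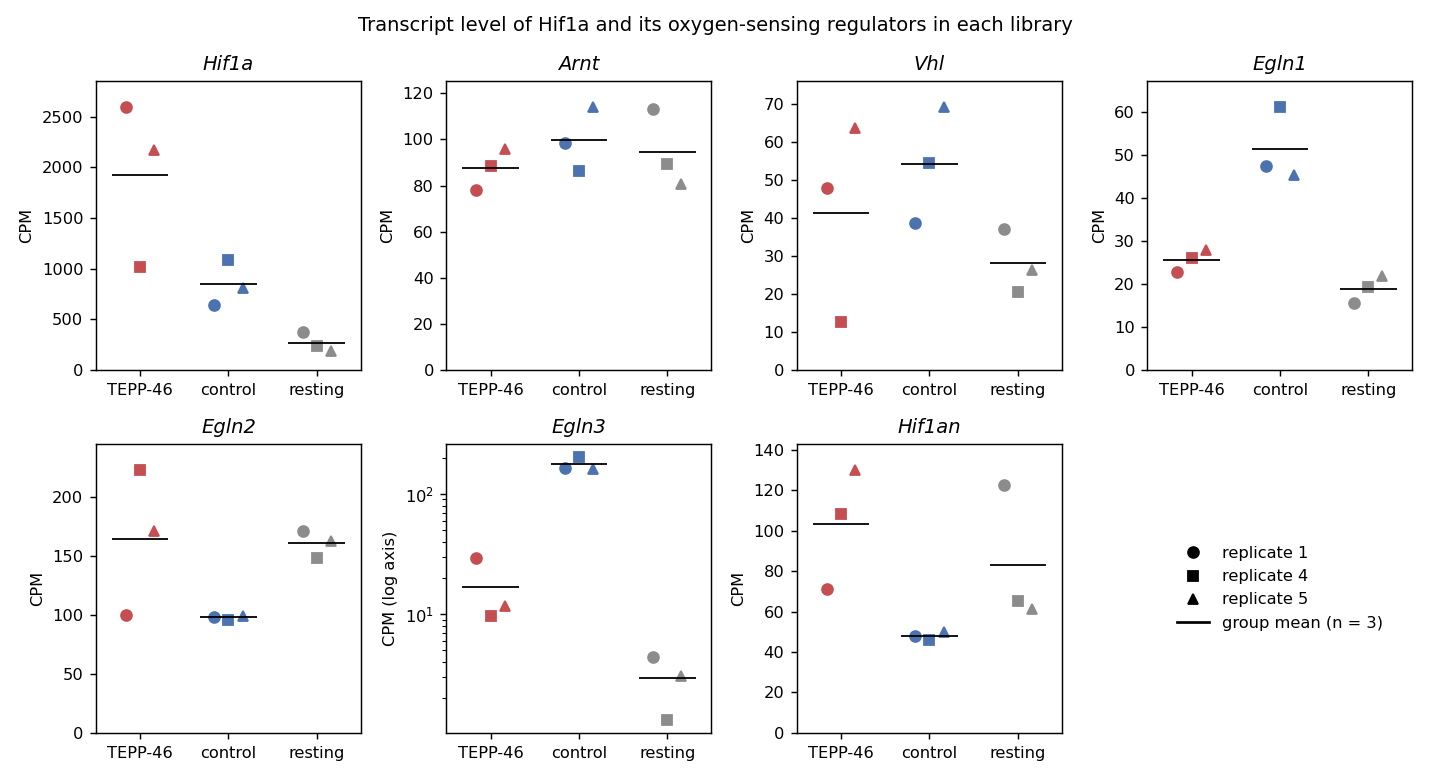
Transcript level (CPM on TMM-scaled library sizes) of each gene in the 3 TEPP-46, 3 control and 3 resting libraries, with marker shapes for replicate numbers and a line for the group mean. Egln3 is on a log axis, and its TEPP-46 libraries lie at 9.66 to 29.2 CPM, below the control libraries at 160 to 204 CPM and above the resting libraries at 1.32 to 4.43 CPM.

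Hif1a encodes the oxygen-labile subunit. Its gene (ENSMUSG00000021109.13) lies on the plus strand of chromosome 12, 73901375 to 73947530 in GRCm38. It was measured at 2592, 1021 and 2172 CPM in TEPP-46 replicates 1, 4 and 5, at 645, 1087 and 812 CPM in control libraries and at 376, 239 and 190 CPM in the resting libraries. Every activated library lay above every resting library, while TEPP-46 replicate 4 lay inside the range of the control libraries. Hif1a rose 3.16-fold in control against resting cells (log2 fold change 1.66 ± 0.38 SE, adjusted p = 0.0092) and 7.18-fold in TEPP-46 against resting cells (2.84 ± 0.40, adjusted p = 0.00316), both by edgeR. In bulk RNA of this kind, more cells with the transcript and more transcript per cell cannot be told apart.

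The TEPP-46 against control difference of Hif1a lay at the threshold. It was 1.18 ± 0.38 on the log2 scale, with a 95% interval of 0.35 to 2.02 and an adjusted p of 0.0563 by edgeR. DESeq2 called it (1.14 ± 0.39, adjusted p = 0.0234), as did edgeR without a filter on low counts (adjusted p = 0.014). It was also called without TEPP-46 replicate 4, the shallowest library (1.49 ± 0.32, adjusted p = 0.0187), and without resting replicate 1 (1.18 ± 0.34, adjusted p = 0.0442). Over the other alternatives the difference stayed positive and the adjusted p reached 0.187.

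The antisense gene Gm15283 overlaps Hif1a on the opposite strand and shares 330 exon bases with it. Its level followed that of Hif1a from library to library. It made up 16.2 to 18.1% of the CPM of Hif1a in TEPP-46, 15.0 to 16.5% in control and 18.2 to 19.1% in resting libraries. The sources used here do not say whether the counting used strand, so reads on the shared bases cannot be assigned to either gene. The predicted gene Gm49321 shares 148 exon bases with Hif1a on the same strand. It has no entry among the deposited counts and could not be analysed.

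Arnt encodes the constitutive partner (ENSMUSG00000015522.18, chromosome 3, 95434388 to 95497240, plus strand). It stood at 78.1, 88.6 and 95.8 CPM in the TEPP-46 libraries, at 98.6, 86.4 and 114 CPM in control libraries and at 113, 89.5 and 80.7 CPM in the resting libraries. The groups overlapped throughout, and Arnt passed the edgeR test in no comparison. The 95% intervals of its log2 fold change were -0.65 to 0.27 for TEPP-46 against control, -0.38 to 0.53 for control against resting and -0.57 to 0.35 for TEPP-46 against resting cells. Without control replicate 5 or resting replicate 5, the control against resting value of Arnt was -0.02 or -0.03 instead of 0.08.

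Per kilobase of exon, Hif1a exceeded Arnt in every library. The log2 ratio of their counts per kilobase was 5.49, 3.97 and 4.95 in TEPP-46 replicates 1, 4 and 5, 3.15, 4.10 and 3.28 in control libraries and 2.17, 1.86 and 1.68 in the resting libraries. This ratio within a library does not depend on scaling between libraries. Its mean was 1.60 higher in control than in resting cells and 2.90 higher in TEPP-46 than in resting cells, with an exact two-sided permutation p of 0.1 for each, the smallest p that 3 against 3 libraries allow. TEPP-46 exceeded control cells by 1.29 with an exact permutation p of 0.2, and TEPP-46 replicate 4 lay below control replicate 4.

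**Figure D2:**
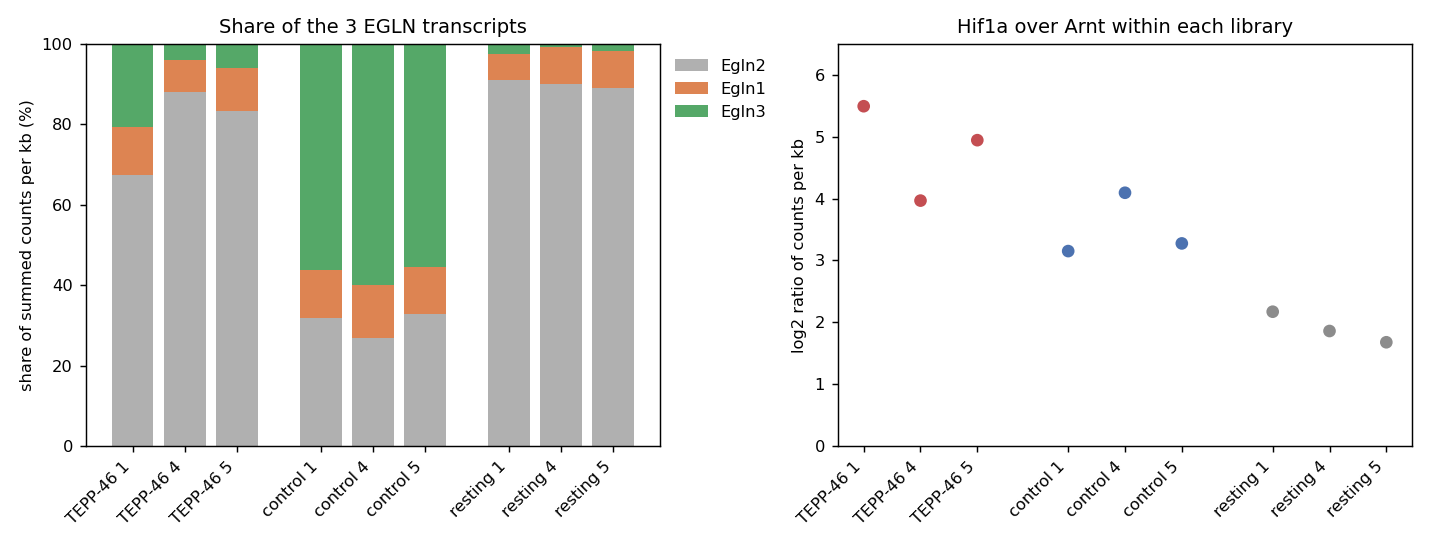
Left, share of Egln2, Egln1 and Egln3 in their summed counts per kilobase of exon (%) in each library; right, log2 ratio of Hif1a to Arnt counts per kilobase. Egln3 makes up 4.01 to 20.6% in the TEPP-46 libraries, 55.6 to 59.9% in the control libraries and 0.845 to 2.48% in the resting libraries.

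Vhl encodes the adaptor that binds hydroxylated HIF-1 alpha (ENSMUSG00000033933.13, chromosome 6, 113623959 to 113631633, plus strand). It was measured at 47.9, 12.6 and 63.7 CPM in the TEPP-46 libraries, at 38.8, 54.5 and 69.1 CPM in control libraries and at 37.2, 20.6 and 26.4 CPM in the resting libraries. TEPP-46 replicate 4, with 30 reads, was the lowest of all 9, and the TEPP-46 libraries spread 5.06-fold, the widest spread of a member within a group. All control libraries lay above all resting libraries, but the difference did not pass the edgeR test (0.94 ± 0.48, adjusted p = 0.162). It passed without TEPP-46 replicate 4 in the fit (0.94 ± 0.29, adjusted p = 0.0277) and when the control and resting libraries alone were fitted (0.95 ± 0.28, adjusted p = 0.0237). TEPP-46 against control cells gave -0.38 ± 0.48 (adjusted p = 0.606), and 0.05 ± 0.32 without TEPP-46 replicate 4.

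Egln3, a prolyl hydroxylase gene that is itself known to respond to HIF, had the largest fold change of the 7 in TEPP-46 against control and in control against resting cells, while Hif1a had the largest in TEPP-46 against resting cells. It lies on the minus strand of chromosome 12 (ENSMUSG00000035105.5, 54178981 to 54203860). The TEPP-46 libraries held 106, 23 and 36 reads, which is 29.2, 9.66 and 11.6 CPM, the control libraries 676, 848 and 636 reads (166, 204 and 160 CPM) and the resting libraries 22, 5 and 14 reads (4.43, 1.32 and 3.03 CPM). The 3 groups did not overlap. Egln3 fell 10.3-fold in TEPP-46 against control cells (-3.37 ± 0.44, adjusted p = 0.00252), rose 58.4-fold in control against resting cells (5.87 ± 0.51, adjusted p = 0.00015) and rose 5.65-fold in TEPP-46 against resting cells (2.50 ± 0.49, adjusted p = 0.0126) by edgeR. The first 2 calls held under all 17 alternative settings. The third was lost without resting replicate 5 (2.50 ± 0.60, adjusted p = 0.0535) and when the TEPP-46 and resting libraries alone were fitted (2.52 ± 0.64, adjusted p = 0.0741). The resting reads are few, and the exact 95% binomial interval for resting replicate 4, at 1.28 CPM of its unscaled total, ran from 0.416 to 2.99, for counting error only.

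Egln1, the main oxygen sensor among the prolyl hydroxylases in most tissues, changed in the same directions by smaller amounts (ENSMUSG00000031987.5, chromosome 8, 124908587 to 124949324, minus strand). It stood at 22.8, 26.0 and 27.8 CPM in the TEPP-46 libraries, at 47.3, 61.0 and 45.4 CPM in control libraries and at 15.5, 19.3 and 21.9 CPM in the resting libraries. The TEPP-46 libraries lay together, below all control libraries and 0.98 CPM or more above all resting libraries. Egln1 fell 2.00-fold in TEPP-46 against control cells (-1.0 ± 0.24, adjusted p = 0.0227) and rose 2.71-fold in control against resting cells (1.44 ± 0.24, adjusted p = 0.00228), both by edgeR. The TEPP-46 against resting difference of 0.44 ± 0.24 did not pass (adjusted p = 0.29, 95% interval -0.11 to 0.98). The fall with TEPP-46 was lost without control replicate 1, 4 or 5 (adjusted p of 0.067, 0.102 and 0.0686) and without TEPP-46 replicate 5 (adjusted p = 0.0607), at values between -1.09 and -0.87.

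The 250 bases before the start of Egln3, Egln1 and Hif1a are shown because these 3 genes rose with activation. Capitals mark the cores of the hypoxia response element, ACGTG or GCGTG, found on either strand. Sequences are from RefSeq on GRCm38.p6, 5′ to 3′ along the gene.

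Egln3, chr12:54203875-54204124, minus strand: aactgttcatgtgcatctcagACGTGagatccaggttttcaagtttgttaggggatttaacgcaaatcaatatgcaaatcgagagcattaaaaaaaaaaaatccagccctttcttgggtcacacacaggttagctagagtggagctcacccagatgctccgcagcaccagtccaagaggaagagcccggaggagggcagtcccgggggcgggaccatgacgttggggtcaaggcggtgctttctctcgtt

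Egln1, chr8:124949255-124949504, minus strand: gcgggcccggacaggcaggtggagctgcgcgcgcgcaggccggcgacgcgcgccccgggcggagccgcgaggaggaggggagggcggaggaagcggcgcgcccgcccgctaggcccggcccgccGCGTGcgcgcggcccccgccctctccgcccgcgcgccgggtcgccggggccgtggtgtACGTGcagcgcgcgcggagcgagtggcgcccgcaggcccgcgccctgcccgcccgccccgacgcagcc

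Hif1a, chr12:73907617-73907866, plus strand: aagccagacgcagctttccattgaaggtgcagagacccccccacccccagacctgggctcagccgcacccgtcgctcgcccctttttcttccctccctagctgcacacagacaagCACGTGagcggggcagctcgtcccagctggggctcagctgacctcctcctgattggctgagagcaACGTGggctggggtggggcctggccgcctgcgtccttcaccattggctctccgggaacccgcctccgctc

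The Egln3 window holds 1 ACGTG, 229 bases before the start. The Egln1 window holds GCGTG at 126 bases and ACGTG at 68 bases before the start. On this minus strand the GENCODE gene of Egln1 opens at 124949324, inside the window, so that the ACGTG lies within that gene. In the Hif1a window, the 6 letters CACGTG at 135 bases match ACGTG on both strands, and ACGTG recurs at 70 bases; this RefSeq start lies inside the GENCODE gene, which opens further upstream. Arnt had 1 GCGTG, Egln2 1 ACGTG and 3 GCGTG in the window before its first start, the window before its other start held 1 GCGTG, and Vhl and Hif1an had 0 of either. Of 32851 RefSeq windows of the same 250 bases, 16.6% held ACGTG, 28.2% held GCGTG and 38.6% held either. A match of 5 letters is a description of the sequence and not a site of binding.

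Egln2 encodes the remaining prolyl hydroxylase (ENSMUSG00000058709.11, chromosome 7, 27158658 to 27166802, minus strand). Its levels were 100, 223 and 171 CPM in TEPP-46 replicates 1, 4 and 5, 98.6, 95.8 and 99.3 CPM in control libraries and 171, 148 and 163 CPM in the resting libraries. The control libraries lay below all others, within 1.04-fold of each other, and TEPP-46 replicate 1 exceeded the highest of them by under 1 CPM. The differences did not pass the edgeR test, with 0.75 ± 0.26 for TEPP-46 against control (adjusted p = 0.0767) and -0.71 ± 0.26 for control against resting cells (adjusted p = 0.0618). Without TEPP-46 replicate 1, Egln2 passed in both (0.997 ± 0.18 with adjusted p = 0.00302, and -0.71 ± 0.16 with adjusted p = 0.00721). Without TEPP-46 replicate 4, the TEPP-46 against control difference was 0.47 ± 0.24 (adjusted p = 0.199). Control against resting cells also passed without TEPP-46 replicate 4 (adjusted p = 0.0242) and with those 2 groups fitted alone (adjusted p = 0.00376). TEPP-46 and resting cells differed by 0.03 ± 0.26 (adjusted p = 0.95), with a 95% interval of -0.55 to 0.61 and a sign that turned under 4 settings.

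The share of Egln3 among the 3 prolyl hydroxylase transcripts did not overlap between the groups. Per kilobase of exon, Egln3 made up 20.6, 4.01 and 5.98% of the sum of Egln1, Egln2 and Egln3 in TEPP-46 replicates 1, 4 and 5, 56.3, 59.9 and 55.6% in control libraries and 2.48, 0.845 and 1.74% in the resting libraries. Egln2 made up most of the rest, at 67.4 to 88.0% in TEPP-46, 26.8 to 32.8% in control and 89.0 to 91.1% in resting libraries. Egln3 was thus the leading transcript of the 3 in each control library and Egln2 in each other library. The mean share of Egln3 was 10.2% in TEPP-46, 57.3% in control and 1.69% in resting cells. Control exceeded resting cells by 55.6 percentage points and the TEPP-46 minus control difference was -47.0 points, with an exact two-sided permutation p of 0.1 for each, the smallest this design allows. It was 8.53 points higher in TEPP-46 than in resting cells (exact permutation p = 0.1), and 3.31 points higher without TEPP-46 replicate 1. The summed level of the 3 was 53.1, 90.4 and 73.1 CPM per kilobase in TEPP-46 libraries, 111, 128 and 108 in control libraries and 67.1, 58.7 and 65.3 in resting libraries. Hif1a stood at 8.29, 1.92 and 5.04 times this sum in TEPP-46 replicates 1, 4 and 5, at 0.989, 1.45 and 1.27 times in control libraries and at 0.95, 0.692 and 0.494 times in the resting libraries, so that the lowest TEPP-46 ratio was above the highest control ratio.

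Hif1an encodes the asparagine hydroxylase FIH, which keeps HIF-1 alpha from its coactivators (ENSMUSG00000036450.4, chromosome 19, 44562850 to 44576274, plus strand). It was measured at 71.2, 108 and 130 CPM in the TEPP-46 libraries, at 47.8, 45.8 and 49.9 CPM in control libraries and at 123, 65.2 and 61.2 CPM in the resting libraries. All control libraries lay below both other groups. Hif1an rose 2.15-fold in TEPP-46 against control cells by edgeR (1.11 ± 0.31, adjusted p = 0.0375). Control against resting cells gave -0.80 ± 0.31 (adjusted p = 0.0735), which passed without TEPP-46 replicate 1 (adjusted p = 0.0374) and with those 2 groups fitted alone (adjusted p = 0.0428). Without resting replicate 1, the highest resting library, it was -0.40 ± 0.26 (adjusted p = 0.281). TEPP-46 against resting cells gave 0.31 ± 0.31 (adjusted p = 0.56), and between 0.11 without TEPP-46 replicate 5 and 0.70 without resting replicate 1 (adjusted p of 0.876 and 0.133). The rise with TEPP-46 was lost with total counts as the only scaling (adjusted p = 0.0594) and with the replicate number as a block (adjusted p = 0.0692). It was also lost without resting replicate 4 (adjusted p = 0.0502) and without control replicate 1, 4 or 5 (adjusted p of 0.118, 0.123 and 0.117). The same held without TEPP-46 replicate 4 or 5 (adjusted p of 0.0647 and 0.133). The values in all these settings lay between 0.91 and 1.13.

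**Figure D3:**
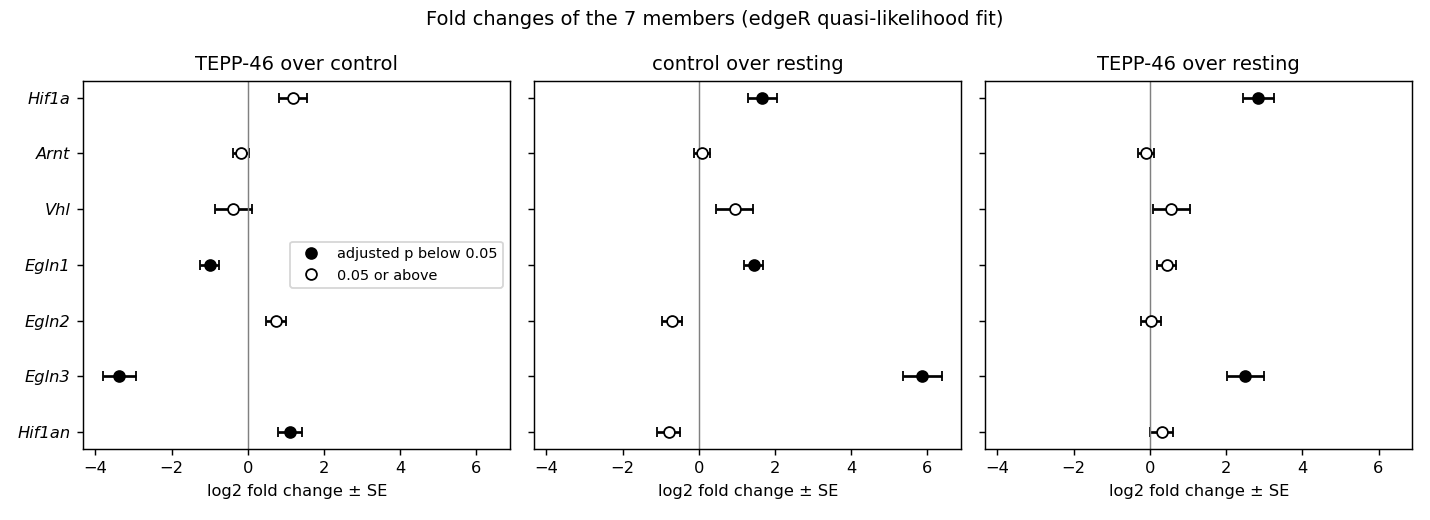
Log2 fold change ± SE of each gene in the 3 comparisons, filled where the adjusted p of edgeR is below 0.05. Egln3 and Egln1 lie left of 0 in TEPP-46 over control and right of 0 in control over resting, while Hif1a lies right of 0 in all 3 panels.

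By group means, Hif1a and Egln3 had different orders. Hif1a averaged 1928 ± 813 CPM in TEPP-46, 848 ± 223 CPM in control and 268 ± 96.2 CPM in resting cells (SD, n = 3 each), and its TEPP-46 and control libraries overlapped. Egln3 averaged 16.8 ± 10.7 CPM in TEPP-46, 177 ± 23.5 CPM in control and 2.93 ± 1.56 CPM in resting cells, and so was highest in control cells. Egln1 also was highest there, with 25.6 ± 2.53 CPM in TEPP-46, 51.2 ± 8.49 CPM in control and 18.9 ± 3.20 CPM in resting cells. Hif1an and Egln2 were lowest in control cells, with TEPP-46 and resting cells overlapping. Of the 7 genes, 4 had groups that did not overlap between TEPP-46 and control cells, where 39.7% of all genes did so. Egln2 and Hif1an lay above (19.7% of all genes) and Egln1 and Egln3 below (20% of all genes). For control and resting cells the number was 6, against 59.2% of all genes, and for TEPP-46 and resting cells it was 3, against 26.8%.

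Relatives of HIF-1 alpha and of ARNT, and other partners of ARNT, were mostly scarce. Of 10 such genes, 4 had enough counts to be tested. In control against resting cells, 2 of these rose and 1 fell, where 15.5% of all genes rose and 15.8% fell. With TEPP-46 against control cells, 0 rose and 1 fell, where 9.72% of all genes rose and 6.43% fell. Hif3a, which encodes a further HIF alpha subunit, fell with TEPP-46 (-3.24 ± 0.83, adjusted p = 0.0278) on 4 reads over the TEPP-46 libraries, 53 over the control libraries and 4 over the resting libraries, and it rose with activation (3.70 ± 0.82, adjusted p = 0.00769). Hif3a passed the count filter only through the control libraries, at 3.19 to 5.52 CPM. The filter therefore favoured both of these directions, and the counts of calls above include Hif3a. The dioxin receptor gene Ahr was at 4.47 ± 0.91 CPM in TEPP-46, 11.9 ± 5.12 in control and 4.32 ± 0.96 in resting cells. Ahr rose with activation (1.46 ± 0.43, adjusted p = 0.0258) and did not pass with TEPP-46 (-1.40 ± 0.43, adjusted p = 0.0511). The clock gene Arntl was at 29.9 ± 6.76 CPM in TEPP-46, 19.3 ± 1.78 in control and 51.8 ± 12.6 in resting cells. Arntl fell with activation (-1.425 ± 0.27, adjusted p = 0.00391) and did not pass with TEPP-46 (0.63 ± 0.27, adjusted p = 0.131). Epas1, which encodes HIF-2 alpha, stood at 4.05 ± 3.28 CPM in TEPP-46, 4.02 ± 1.05 in control and 9.49 ± 8.36 in resting cells and did not pass in any comparison. The median log2 fold change with TEPP-46 was -0.68, beside 0.04 over all genes tested.

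Genes of the VHL ubiquitin ligase had 0 of 10 calls by edgeR between TEPP-46 and control cells, where 16.2% of all genes were called. Their median was -0.30. At an unadjusted p below 0.05, 2 were higher and 1 lower, DESeq2 called 1 lower, and limma-voom called 0. The lowest adjusted p were those of Ube2d2a (0.56 ± 0.19, adjusted p = 0.0702) and Ube2m (-0.83 ± 0.30, adjusted p = 0.0797). Between control and resting cells, 2 rose and 2 fell, where 15.5% of all genes rose and 15.8% fell. Cul2 (0.78 ± 0.25, adjusted p = 0.0363), the scaffold of the ligase, and the neddylation gene Ube2m (0.97 ± 0.30, adjusted p = 0.0313) rose. The ubiquitin-conjugating genes Ube2d1 (-1.85 ± 0.28, adjusted p = 0.00151) and Ube2d2a (-1.24 ± 0.19, adjusted p = 0.00158) fell. Both were also lower in TEPP-46 than in resting cells (adjusted p of 0.025 and 0.0474).

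Among 15 regulators of HIF-1 alpha or EGLN stability, 1 rose and 2 fell with TEPP-46, where 9.72% of all genes rose and 6.43% fell. The list median was -0.43. Os9, whose product in human cells has been described to bind HIF-1 alpha and its hydroxylases, rose with TEPP-46, with 601 ± 166 CPM in TEPP-46, 236 ± 11.2 in control and 375 ± 45.4 in resting cells (1.34 ± 0.23, adjusted p = 0.00705). The chaperone gene Hsp90aa1 (-1.11 ± 0.33, adjusted p = 0.0448) and the co-chaperone gene Ptges3 (-0.80 ± 0.22, adjusted p = 0.0364) fell. Rack1, a ribosomal scaffold gene, gave -0.67 ± 0.21 (adjusted p = 0.0508). With activation, where 15.5% of all genes rose and 15.8% fell, Rack1 and the SUMO protease gene Senp1 rose. Siah1a, a ubiquitin ligase gene of the EGLN proteins, and Usp28 fell, with a list median of 0.08.

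Of 9 coactivators and their inhibitors, 1 rose and 0 fell with TEPP-46, where 9.72% of all genes rose and 6.43% fell. The list median was 0.23. DESeq2 called 1 higher and 1 lower, and limma-voom called 0. Crebbp, which encodes the coactivator CBP, stood at 345 ± 178 CPM in TEPP-46, 139 ± 22.5 in control and 397 ± 126 in resting cells (TEPP-46 against control 1.31 ± 0.39, adjusted p = 0.0429; control against resting -1.52 ± 0.39, adjusted p = 0.0145). Its relative Ep300 gave 0.99 ± 0.52 with TEPP-46 (adjusted p = 0.205). Cdk8, a Mediator kinase gene, rose with activation (1.54 ± 0.33, adjusted p = 0.00646) and gave -0.94 ± 0.33 with TEPP-46 (adjusted p = 0.0731).

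Of 13 genes that act upstream of HIF-1 alpha synthesis, 0 rose and 2 fell with TEPP-46, where 9.72% of all genes rose and 6.43% fell. The list median was 0.01. The translation inhibitor gene Eif4ebp1 fell to 42.7 ± 23.9 CPM in TEPP-46, against 209 ± 32.9 CPM in control cells and 19.0 ± 2.64 CPM in resting cells (-2.28 ± 0.35, adjusted p = 0.00407). Myc, a driver of growth, also fell (-2.17 ± 0.65, adjusted p = 0.0455). The cap-binding gene Eif4e was at -1.04 ± 0.32 (adjusted p = 0.0502) and Tsc2 at 0.75 ± 0.24 (adjusted p = 0.0621). At an unadjusted p below 0.05, 2 were higher and 4 lower. DESeq2 called 0 higher and 4 lower, and limma-voom 0 higher and 3 lower. Between control and resting cells, 3 rose and 1 fell, where 15.5% of all genes rose and 15.8% fell. Eif4ebp1 (3.46 ± 0.36, adjusted p = 0.000277), Eif4e (0.99 ± 0.32, adjusted p = 0.038) and Myc (1.88 ± 0.64, adjusted p = 0.0464) rose. Rela fell (-1.23 ± 0.34, adjusted p = 0.0208). Stat3 was higher in TEPP-46 than in resting cells (0.83 ± 0.20, adjusted p = 0.0307).

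Known HIF-1 target genes were followed as a list. Of the 21 tested among 24 listed, 17 rose and 0 fell in control against resting cells, with a median of 2.25 beside -0.04 over all genes. Of all genes, 15.5% rose and 15.8% fell there. With TEPP-46, 0 rose and 7 fell against control cells, where 9.72% of all genes rose and 6.43% fell. The list median there was -1.10 beside 0.04. All 21 values were below 0 in that comparison, and 15 had an unadjusted p below 0.05. The shares of all genes below 0 or at that unadjusted p were not computed, so these counts have no background. DESeq2 called 12 lower, beside 1366 of 14304 genes, and limma-voom 9, beside 1117 of 12536. Both called 0 of the list higher. Against resting cells, 2 rose with TEPP-46 and 0 fell, where 6.37% of all genes rose and 3.92% fell. The median was 0.79 beside 0.02. Both comparisons use the same control libraries, and earlier results of these data were known when the list was drawn up, so that its direction is not independent evidence.

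Of the target genes that fell with TEPP-46, Ero1l, an oxidoreductase gene of protein folding, had the lowest adjusted p. It stood at 81.9 ± 43.0 CPM in TEPP-46, 776 ± 90.9 in control and 55.9 ± 6.14 in resting cells (TEPP-46 against control -3.24 ± 0.34, adjusted p = 0.0013). The transcription factor gene Nfil3 was at 37.4 ± 10.2 CPM in TEPP-46, 128 ± 7.17 in control and 25.2 ± 8.57 in resting cells (-1.76 ± 0.28, adjusted p = 0.00529). The collagen prolyl hydroxylase gene P4ha2 was at 3.86 ± 5.09 CPM in TEPP-46, 62.1 ± 5.80 in control and 1.03 ± 0.73 in resting cells (-3.90 ± 0.80, adjusted p = 0.0124). It passed the count filter through its control libraries, which favours this direction. Ankrd37 was at 3.59 ± 1.66 CPM in TEPP-46, 20.8 ± 11.4 in control and 2.41 ± 0.96 in resting cells (-2.52 ± 0.58, adjusted p = 0.02). Bnip3, P4ha1 and Pgk1 also fell, and Pgk1 remained above resting cells (1.88 ± 0.48, adjusted p = 0.0359). Ddit4, a stress-induced inhibitor of mTOR signalling, did not pass against control cells (-1.04 ± 0.43, adjusted p = 0.117) and remained above resting cells (2.89 ± 0.46, adjusted p = 0.00562). Vegfa, Car9 and Adm, 3 classical hypoxia genes, were below the count filter. Vegfa had 1 read over the TEPP-46 libraries, 68 over the control libraries and 1 over the resting libraries. Car9 had 8 reads in TEPP-46, 40 in control and 7 in resting cells, and Adm had 1 in TEPP-46, 21 in control and 5 in resting cells.

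Other enzymes that use oxygen and 2-oxoglutarate, as the EGLN proteins do, were followed as a list. Of 14 tested, 0 rose and 2 fell with TEPP-46, where 16.2% of all genes were called (9.72% higher, 6.43% lower). With activation, 2 rose and 0 fell, where 31.2% of all genes were called (15.5% higher, 15.8% lower). The list medians were -0.17 and -0.24. DESeq2 and limma-voom also called 0 higher with TEPP-46 and 0 lower with activation. At an unadjusted p below 0.05, 1 was higher with TEPP-46 and 1 lower with activation. The collagen lysyl hydroxylase gene Plod2 was at 8.17 ± 2.10 CPM in TEPP-46, 24.6 ± 7.37 in control and 1.21 ± 1.05 in resting cells (TEPP-46 against control -1.58 ± 0.48, adjusted p = 0.0472). Jmjd6 was at 61.8 ± 6.14 CPM in TEPP-46, 154 ± 40.5 in control and 90.3 ± 0.78 in resting cells (-1.32 ± 0.23, adjusted p = 0.00678). The DNA demethylase gene Tet3 and the histone demethylase gene Kdm5a gave 0.87 ± 0.38 and 0.53 ± 0.24 (adjusted p of 0.139 and 0.158).

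**Figure D4:**
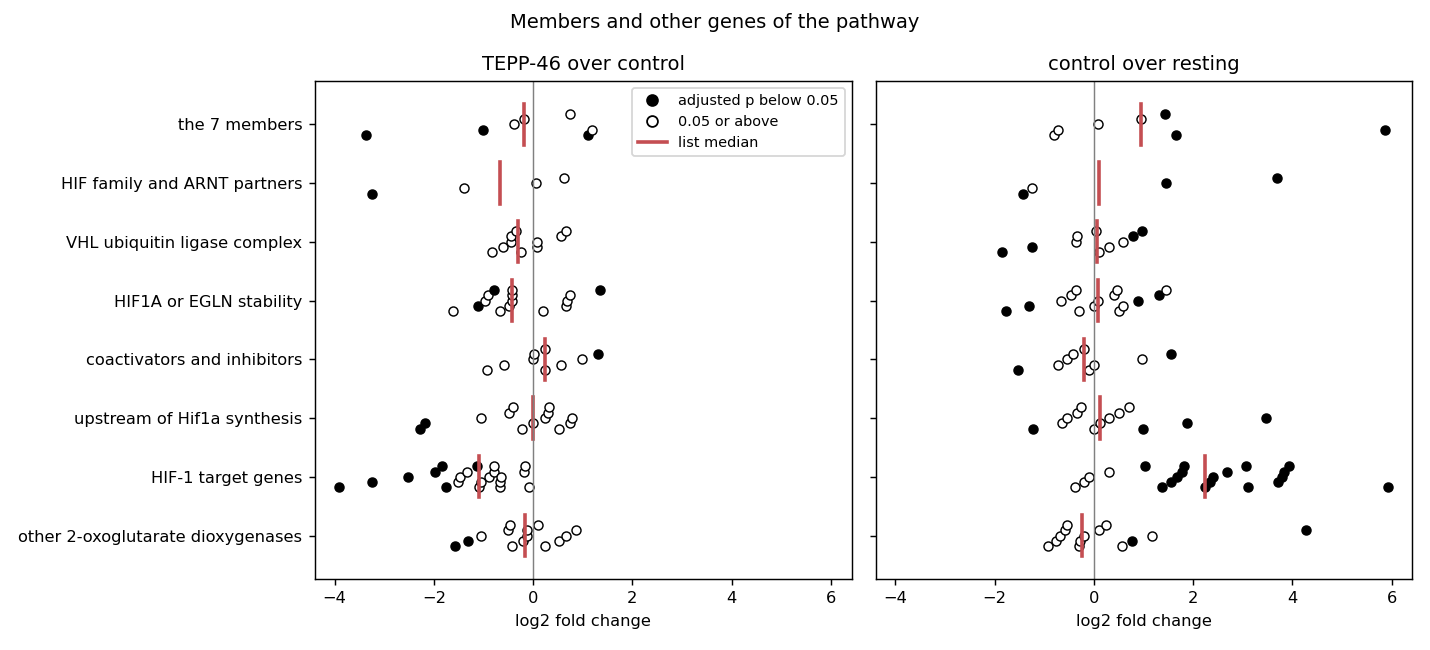
Log2 fold changes of the 7 genes and of the tested genes of each pathway list, filled where the adjusted p of edgeR is below 0.05, with a red line at the list median. The 21 HIF-1 target genes lie left of 0 in TEPP-46 over control (median -1.10) and mostly right of 0 in control over resting (median 2.25), while the medians of the other pathway lists lie between -0.68 and 0.23.

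Profiles most like those of Hif1a and Egln3 were sought among 8719 genes with a mean of at least 10 CPM, by the root mean square difference of log2 CPM centred on each gene over the 9 libraries, where the values of a library share its depth and scaling. Nearest to Hif1a were the interferon-induced GTPase gene Igtp (0.41), the ubiquitin ligase gene Cblb (0.41), Cobll1 (0.41), Rasgef1a (0.48) and Rhoc (0.49), beside a median distance of 1.35. Igtp stood at 1924 ± 922 CPM in TEPP-46, 783 ± 99.4 in control and 360 ± 50.2 in resting cells. Nearest to Egln3 were the hexokinase gene Hk2 (0.60), C1qtnf12 (0.62), the phosphatase gene Cdc25c (0.65), Prelid2 (0.70) and the proliferation marker Mki67 (0.70), beside a median distance of 2.48. Hk2 stood at 21.9 ± 9.37 CPM in TEPP-46, 106 ± 9.92 in control and 2.63 ± 1.92 in resting cells. Egln1 was in place 772 by distance from Egln3, and Hif1a in place 1496.

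**Figure D5:**
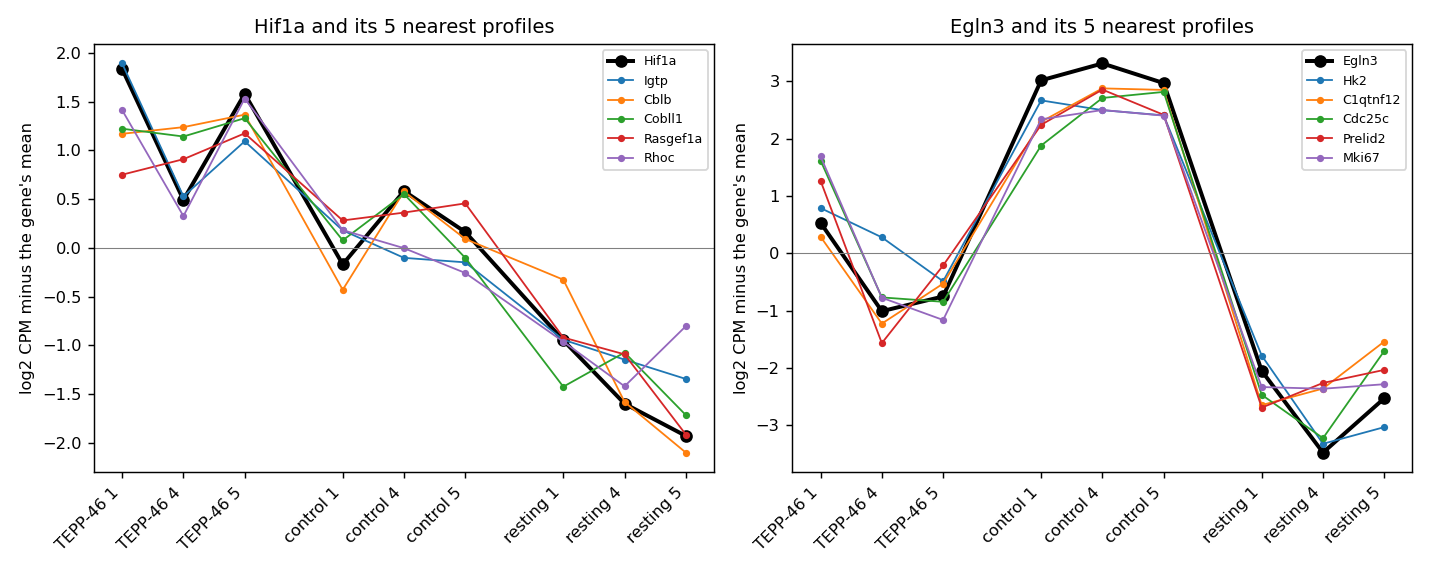
Log2 CPM minus the gene's own mean in each library for Hif1a (left) and Egln3 (right) in black with the 5 nearest profiles in colour; lines only join the values of a gene. By group mean CPM, Hif1a and its nearest profiles are highest in TEPP-46 cells, though Hif1a in TEPP-46 replicate 4 lies below control replicate 4. Egln3 and its nearest profiles have their highest group mean in control cells.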

How the data were processed

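The authors deposited raw read counts per Ensembl gene, without normalization, in a table with 1 column per library, per the file headers. The submitters' processing notes name the build GRCm38 and the tool DESeq2. The aligner, counter and annotation release are unknown here. Symbols, exon lengths and coordinates (from 1) came from GENCODE M21 on GRCm38, and promoters from RefSeq on GRCm38.p6.

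Of 47937 genes, 12536 passed filterByExpr (minimum count 10, minimum total 15). All 9 libraries were fitted by group with TMM factors in edgeR 4.0.16 (glmQLFit, glmQLFTest; R 4.3.3), two-sided, with Benjamini-Hochberg adjustment over 12536 genes and a threshold of 0.05. Errors after log2 fold changes are SE and after CPM are SD (n = 3). A count of 3 corresponded to 0.596 to 1.25 CPM. Shares within a library were compared by exact permutation. The fit was tested on simulated counts. Alternatives were DESeq2 1.42.0, limma-voom 3.58.1, other scalings and filters, a fit of 2 groups alone, a block for replicate number, and omission of each library in turn.

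The 7 genes, the pathway and marker lists and the tests were chosen with earlier results of these data known. From each list, up to 4 genes were named in order of adjusted p in each comparison described. Bnip3, P4ha1, the TEPP-46 against control values of Pgk1 and Ddit4, Vegfa, Car9 and Adm were named after their values were seen.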

Additional observations from a re-analysis of the deposited data

How the results depend on the processing

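The calls of Hif1a, Egln1 and Egln3 in control against resting cells, of Egln3 in TEPP-46 against control cells and of Hif1a in TEPP-46 against resting cells held under all 17 alternatives; the cause of the changes that follow was not tested. With only the 2 groups compared, 6 of the 7 genes were called in control against resting cells, with Vhl at 0.95, Egln2 at -0.70 and Hif1an at -0.78. Calls over all genes also rose there, to 5739 of 12153 genes from 3914 of 12536. TEPP-46 against resting cells had 400 calls of 11804 genes and 1 of the 7 genes, with Egln3 at 2.52. DESeq2 gave 2093 calls in TEPP-46 against resting cells, against 1289 by edgeR. In TEPP-46 against control cells, Hif1a was called at 1.17 without a filter and at 1.15 with DESeq2, and Hif1an was not called at 0.98 with library totals only. Deviations of same-numbered libraries correlated at -0.123 to 0.0893, with 0 of 9 over 0.1. Those of other-numbered libraries correlated at -0.108 to 0.123. With 3 libraries a group, this cannot decide whether the numbers pair the samples, and no label says what the numbers stand for. With the replicate number as a block, TEPP-46 against resting cells had 705 calls and Egln2 at -0.0096. In that fit, Hif1an in TEPP-46 against control cells was at 1.12 and no longer called (adjusted p = 0.0692). With limma-voom, Egln2 in TEPP-46 against resting cells was at -0.0459.

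Leaving out each library in turn, control against resting cells gave 2316 to 5194 calls, 3 to 5 of the 7 genes, Arnt from -0.0304 to 0.23, including -0.025, Vhl from 0.73 to 1.20, Egln2 from -0.77 to -0.66 and Hif1an from -0.98 to -0.40. TEPP-46 against control cells gave 395 to 4407 calls, 1 to 4 of the 7 genes, Hif1a from 0.90 to 1.49, Vhl from -0.82 to 0.0454, Egln1 from -1.09 to -0.87, Egln2 from 0.47 to 0.997 and Hif1an from 0.91 to 1.31. TEPP-46 against resting cells gave 426 to 1897 calls, 1 to 2 of the 7 genes, Arnt from -0.22 to 0.034, Egln2 from -0.25 to 0.28, including -0.0318, Hif1an from 0.11 to 0.70 and Egln3 from 1.81 to 2.92. Depth limits Egln3 in resting cells most, at 5 to 22 reads a library.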
